A study of Mus musculus with 34 samples.

Results

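Wild-type (WT) CD8+ dendritic cells (DCs) were compared with WT CD8- DCs, the pair of conventional DC populations that can be sorted from mouse spleen by the surface protein CD8. The comparison was defined by the array titles alone: 4 arrays were titled WT CD8+ and 4 WT CD8-, together 8 of the 34 arrays of the series. All 8 came from C57BL/6 mice of WT genotype, for which the labels name no stimulus, and the cells were sorted freshly by FACS, a fluorescence-based cell sorter. Mst1/2-KO CD8+ and Mst1/2-KO CD8- arrays, 4 of each, carried the genotype Mst1/2-/-, which removes a pair of Hippo pathway kinases, and serve below as a second set of sorted subsets from the same strain. The labels do not say which cells the deletion was targeted to. The remaining arrays of the series, total DCs and anti-CD40 experiments, were not used in the comparison.

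DCs take up antigen, carry it to lymphoid tissue and present it to T cells. CD8+ DCs, known as the cDC1 lineage, depend on the transcription factors IRF8 and BATF3 and are known for taking up dead cells and presenting their antigens to CD8 T cells on MHC class I, which is called cross-presentation. CD8- DCs, largely the cDC2 lineage, are known to use IRF4 and, in spleen, Notch2 signalling, and to present antigen on MHC class II to CD4 T cells.

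RNA was read with probe sets of the Affymetrix Mouse Gene 2.0 ST design, and each value is the authors' normalized log2 signal, so a difference of 1 is a factor of 2. Signals of different genes cannot be ranked against each other, since each probe set has its own brightness. Differences are given throughout as CD8+ minus CD8- on the log2 scale with the standard error (SE), and a gene was called where limma's Benjamini-Hochberg adjusted p over all 22180 genes was under 0.05. Arrays have no read depth, so the number of arrays limits the precision. The median signal of the 8 arrays lay between 4.12 and 4.20. Over all genes, CD8+ arrays correlated with each other at 0.989 to 0.994, CD8- arrays at 0.990 to 0.994, and arrays of different subsets at 0.961 to 0.966. The first principal component held 71.3% of the variance and separated the subsets. The second held 9.38% and set replicate 1 of both subsets, at 26.18 (CD8+) and 22.39 (CD8-), apart from the other 6 arrays at -6.66 to -9.92.

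The subsets differed at 4663 genes, 21.0% of those tested. Of these, 2444 (11.0%) were higher in CD8+ DCs and 2219 (10.0%) were lower. At least a 2-fold difference was reached by 1075 called genes (4.85%), 451 of them higher and 624 lower in CD8+ DCs. Lower genes also outnumbered higher ones at larger sizes. At least 4-fold, 125 were higher against 202 lower, at least 8-fold 33 against 77, and at least 16-fold 15 against 25. The median difference over all genes was 0.02 and the median absolute difference 0.13. The 4 CD8+ arrays did not overlap the 4 CD8- arrays at 4979 genes (22.4%). Without replicate 1 of both subsets, 4350 genes were called. With only genes brighter than the median gene tested, 4530 were called, 2361 higher and 2169 lower. That fit adjusted p over the brighter genes alone, so its count is not a part of the 4663. Nearly as many calls from fewer genes still gave brighter genes a larger share called. Each list below stands against the shares over all genes, 11.0% higher and 10.0% lower, a low background for lists of bright genes. Probe sets outside the gene table also differed: 307 of 1814 shared by several genes (16.9%) and 667 of 15820 without a gene name (4.22%).

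**Figure D1:**
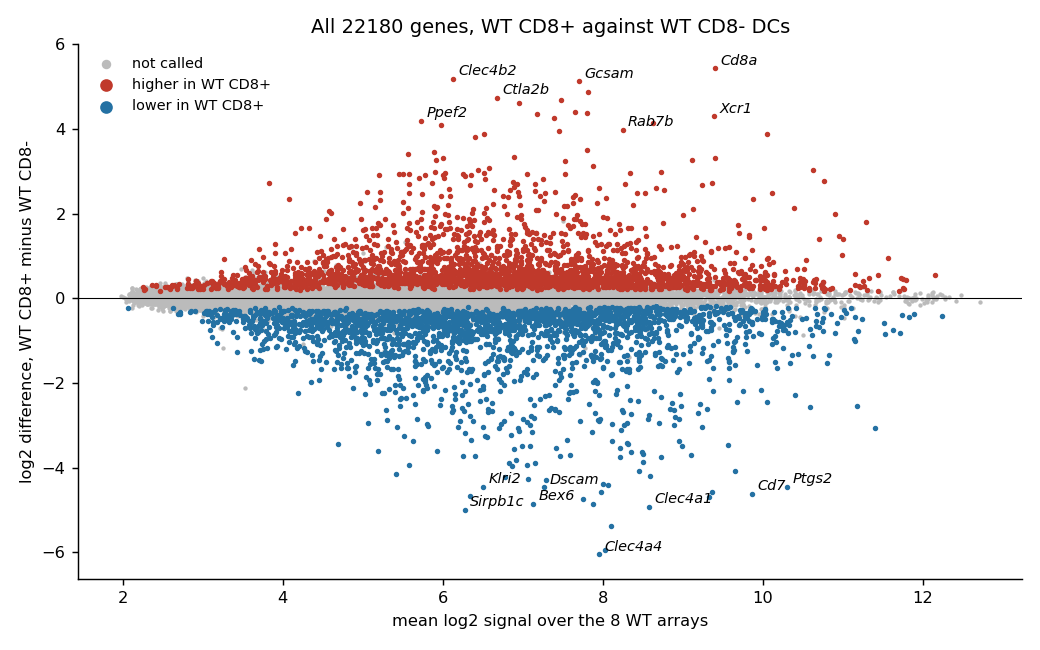
Log2 difference of each of the 22180 genes, WT CD8+ minus WT CD8-, against its mean log2 signal over the 8 WT arrays, with genes called higher in red, called lower in blue and not called in grey. The largest positive difference is that of Cd8a at 5.43 and the most negative labelled one that of Clec4a4 at -6.05.

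Promoter sequences of 4 genes are shown first, because they belong to neighbouring genes that differed in opposite directions and to genes that hold a motif found more often before genes lower in CD8+ DCs than before all genes. Clec4b1 and Clec4b2 are C-type lectin genes of the same cluster that differed in opposite directions. Cybb encodes the catalytic subunit of the phagocyte NADPH oxidase, and Ifit1 is an interferon-induced gene; both were lower in CD8+ DCs. Each sequence is the 250 bases before the gene's RefSeq start in build GRCm38.p6, written 5′ to 3′ on the gene's strand, with capitals marking matches to GAAANNGAAA, a pair of GAAA half-sites as in elements that IRF factors bind, on either strand. The windows are chr6:123172773-123173022 (plus strand, Clec4b2), chr6:123049712-123049961 (plus strand, Clec4b1), chrX:9469325-9469574 (minus strand, Cybb) and chr19:34640639-34640888 (plus strand, Ifit1).
Clec4b2: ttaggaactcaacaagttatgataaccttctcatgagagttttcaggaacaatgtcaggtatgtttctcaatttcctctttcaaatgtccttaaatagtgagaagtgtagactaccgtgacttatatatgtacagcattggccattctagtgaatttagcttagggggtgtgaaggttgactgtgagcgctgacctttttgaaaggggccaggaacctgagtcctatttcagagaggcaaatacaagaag
Clec4b1: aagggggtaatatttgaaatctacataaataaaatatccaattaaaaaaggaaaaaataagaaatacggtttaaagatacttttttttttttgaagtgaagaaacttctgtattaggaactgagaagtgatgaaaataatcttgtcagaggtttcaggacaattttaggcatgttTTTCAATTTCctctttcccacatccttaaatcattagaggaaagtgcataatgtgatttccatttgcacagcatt
Cybb: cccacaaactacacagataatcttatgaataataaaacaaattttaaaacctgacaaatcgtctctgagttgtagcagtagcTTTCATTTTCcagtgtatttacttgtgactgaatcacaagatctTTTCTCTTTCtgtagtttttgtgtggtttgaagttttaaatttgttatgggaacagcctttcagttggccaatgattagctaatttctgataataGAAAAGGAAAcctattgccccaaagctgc
Ifit1: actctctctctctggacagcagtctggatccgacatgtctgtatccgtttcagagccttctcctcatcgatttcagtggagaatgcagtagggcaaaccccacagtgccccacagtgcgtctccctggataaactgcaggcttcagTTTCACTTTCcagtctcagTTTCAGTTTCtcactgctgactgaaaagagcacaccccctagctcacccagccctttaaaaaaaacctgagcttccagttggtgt

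Clec4b1 held 1 match, Cybb 3, Ifit1 2 and Clec4b2 none. Clec4b1 and Clec4b2 aligned locally over 143 columns, 104 of them identical (72.7%). The match of Clec4b1 begins 75 bases before its start and lines up with TCTCAATTTC, which begins 185 bases before the start of Clec4b2. The 10 aligned bases differed by the single substitution T2C, with Clec4b1's base first and positions counted from the first capital of the match in Clec4b1. The same letters were counted before the RefSeq starts of all 16990 genes that had a window. GAAANNGAAA was present before 8.94% of 470 genes at least 2-fold lower in CD8+ DCs and before 3.62% of 359 genes at least 2-fold higher, against 3.40% of all genes. The longer GAAANNGAAAC, which contains it, was present before 3.62% of the lower genes and none of the higher ones, against 0.765% of all. Without the members of the interferon-stimulated list described below, the lower genes had GAAANNGAAA before 8.01% of 462 and GAAANNGAAAC before 3.03%. Only members of that list were left out, so other interferon-induced genes can remain among the 462. GGAANNGAAA, an ETS-IRF composite, was present before 4.47% of the lower, 1.67% of the higher and 2.60% of all genes. TGANTCA, the letters of an AP-1 site, was present before 8.30% of the lower, 6.41% of the higher and 7.44% of all genes. These shares describe letters in fixed windows and say nothing about binding.

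The sort was first checked against its own marker. Cd8a, the alpha chain of CD8, had signals of 12.25, 12.12, 12.04 and 12.05 on CD8+ arrays, against 6.90, 6.42, 6.44 and 7.00 on CD8- arrays. The groups were 5.43 apart (43.1-fold), the largest positive difference in the table, which follows from the gate. Cd8b1, the beta chain found on T cells, differed by 0.52 ± 0.16 (SE, adjusted p = 0.0274), with 5.66 to 6.33 on CD8+ arrays against 5.27 to 5.50 on CD8- arrays. This call was lost when CD8+ replicate 2 or 3, or CD8- replicate 2 or 3, was left out. Cd4, which part of the CD8- DCs carry on their surface, had 6.56, 5.83, 6.81 and 6.45 on CD8+ arrays, against 10.23, 10.60, 10.78 and 10.30 on CD8- arrays, a difference of -4.07 ± 0.21 (adjusted p = 9.9e-11).

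Genes known to identify CD8+ DCs were nearly all higher in CD8+ DCs: 29 of 30 measured were called higher and 1 lower, with a median difference of 3.02 against 0.02 over all genes. This list and the CD8- list below were written with earlier results of these data known, and this one includes Cd8a, which the gate sets. The arrays of the subsets did not overlap at any of the 30, against 22.4% of all genes without overlap. Xcr1, the receptor through which these cells meet XCL1-secreting lymphocytes, had 11.48, 11.45, 11.60 and 11.62 on CD8+ arrays, against 7.20, 6.91, 7.05 and 7.79 on CD8- arrays (difference 4.30 ± 0.14, adjusted p = 9.76e-13). Itgae, the integrin alpha E chain CD103, had 9.35, 10.64, 10.39 and 10.57 on CD8+ arrays, against 5.44, 5.26, 5.24 and 5.57 on CD8- arrays, with CD8+ replicate 1 the lowest of its group. Cd207, encoding the lectin langerin, had 8.75, 9.34, 9.75 and 9.18 on CD8+ arrays, against 4.59, 4.53, 4.68 and 4.79 on CD8- arrays. All CD8+ arrays therefore lay far above all CD8- arrays at these genes. Gcsam, a signalling adaptor first described in germinal centre B cells, averaged 10.26 ± 0.21 in CD8+ DCs and 5.14 ± 0.31 in CD8- DCs (SD, n = 4 each), a difference of 5.12. Further genes of the list were the adhesion protein gene Cadm1 (2.99 ± 0.12), the uptake receptor gene Ly75 encoding DEC-205 (3.13 ± 0.17), the scavenger receptor gene Cd36 (3.27 ± 0.23), and the lipid amidase gene Naaa (3.04 ± 0.15).

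Smaller differences stood at the lower end of the same list. Flt3, the receptor for the growth factor that drives DC development, differed by 0.37 ± 0.09 (adjusted p = 0.00522), with 9.73 to 9.92 on CD8+ arrays against 9.33 to 9.58 on CD8- arrays. Wdfy4, which cross-presentation in CD8+ DCs requires, differed by 0.86 ± 0.08. Its groups did not overlap, at 10.46 to 10.65 on CD8+ arrays against 9.60 to 9.85 on CD8- arrays. Cd24a, a surface sialoglycoprotein used to sort the lineage, differed by 1.47 ± 0.10, and its second probe set by 2.07. The exception was Cd226, an adhesion receptor also found on lymphocytes, at 4.34 to 4.75 on CD8+ arrays against 5.56 to 6.68 on CD8- arrays, a difference of -1.48 ± 0.21 (adjusted p = 3.91e-05).

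Genes known to identify CD8- DCs were mostly lower in CD8+ DCs: 23 of 25 measured were called lower, 1 higher and 1 was not called, with a median difference of -2.64. Sirpa, an inhibitory receptor for CD47, had 7.13, 7.24, 7.54 and 7.13 on CD8+ arrays, against 10.52, 10.66, 10.71 and 10.68 on CD8- arrays (difference -3.38 ± 0.09, adjusted p = 2.8e-13). Itgam, encoding CD11b, had 5.11, 4.99, 5.28 and 4.64 on CD8+ arrays, against 9.07, 8.73, 8.79 and 8.68 on CD8- arrays. Clec4a4, the lectin receptor recognized by the antibody 33D1, had 4.79, 4.79, 5.47 and 4.63 on CD8+ arrays, against 10.69, 11.14, 11.19 and 10.88 on CD8- arrays. The last is a 66.4-fold difference. S100a4, a calcium-binding protein gene, was 8.41-fold lower in CD8+ DCs, Cx3cr1, the fractalkine receptor gene, 7.47-fold, and the paired membrane protein genes Tmem176a and Tmem176b 6.11-fold and 8.27-fold. Lyz2, the lysozyme gene often used as a myeloid marker, differed by -0.87 ± 0.07 only. Clec12a, an inhibitory lectin for uric acid crystals, went against the list at 1.33 ± 0.13, and Mgl2, a galactose-type lectin, was not called (-0.26 ± 0.14, adjusted p = 0.227). Esam, which marks a Notch-dependent fraction of CD8- DCs, was at 4.60 to 5.30 on CD8+ arrays against 6.18 to 6.44 on CD8- arrays, a difference of -1.36 ± 0.14.

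**Figure D2:**
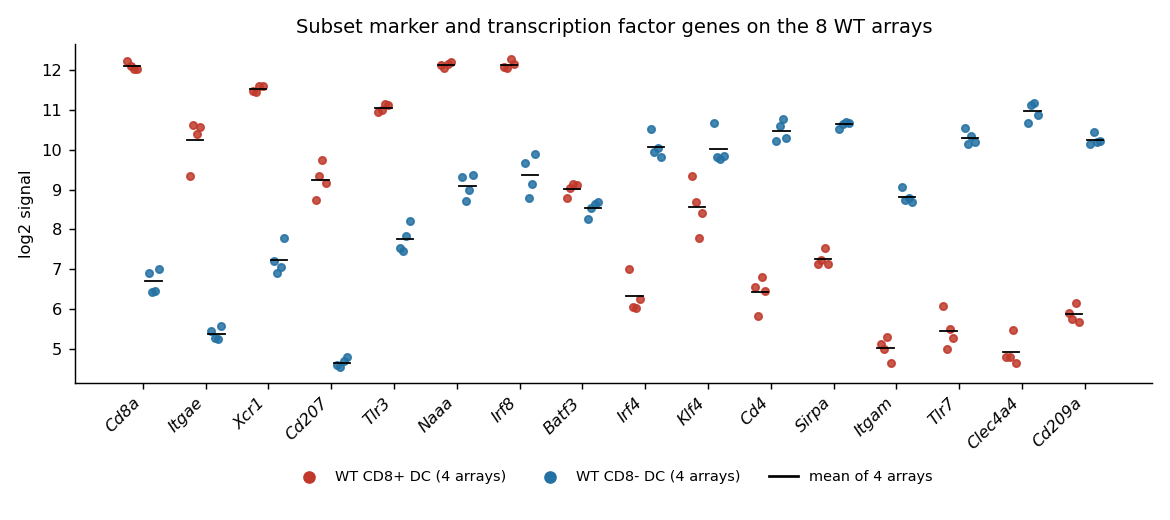
Log2 signal of 16 subset marker and transcription factor genes on each of the 4 WT CD8+ arrays (red, left of each pair) and the 4 WT CD8- arrays (blue, right), with lines at the mean of 4 arrays. The groups do not overlap at any of the 16 genes, and Batf3 has the closest pair, 8.78 to 9.13 against 8.27 to 8.70. The genes were picked for display from longer lists, and members such as Mgl2, Nfil3 and Bcl6, whose groups overlapped, are not shown. Of all genes, 22.4% had no overlap.

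The labelled cell type was set against genes that all conventional DCs use. Of 15 such genes, 2 were called higher in CD8+ DCs, 5 lower and 8 not at all, with a median of -0.07. The share called was 46.7%, against 21.0% over all genes. All genes include dim ones, so 21.0% is a low background for this list, whose array means lay at 10.0 or above. H2-Ab1, an MHC class II beta chain, had 12.31, 12.28, 12.29 and 12.25 on CD8+ arrays, against 12.27, 12.29, 12.26 and 12.25 on CD8- arrays, so the groups overlapped. Zbtb46, a transcription factor gene that separates conventional DCs from other myeloid cells, differed by 0.20 ± 0.16 (adjusted p = 0.46). Itgax, encoding CD11c, was a little lower in CD8+ DCs (-0.51 ± 0.07), and Cst3, encoding cystatin C, a little higher (0.56 ± 0.06). The count of 5 lower was 3 without CD8+ replicate 3 or 4.

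Among 30 transcription factor genes with known roles in DC development, 6 were higher in CD8+ DCs, 11 lower and 13 not called, and the median difference was -0.09. Irf8 had 12.09, 12.06, 12.28 and 12.16 on CD8+ arrays, against 9.68, 8.78, 9.14 and 9.91 on CD8- arrays, a 6.82-fold difference (2.77 ± 0.23, adjusted p = 5.01e-08), and its second probe set differed by 3.28. Irf4 ran the other way, at 7.01, 6.04, 6.01 and 6.25 on CD8+ arrays, against 10.52, 9.94, 10.05 and 9.83 on CD8- arrays, a 13.5-fold difference (-3.76 ± 0.21, adjusted p = 2.36e-10). Batf3, the partner of IRF8 in CD8+ DCs, differed far less: it had 8.78, 9.05, 9.13 and 9.11 on CD8+ arrays, against 8.27, 8.55, 8.65 and 8.70 on CD8- arrays (0.48 ± 0.10, adjusted p = 0.0025). Irf8 and Irf4 thus separated the subsets by far more than Batf3 did, at 1.39-fold. Also higher in CD8+ DCs were Mycl (1.49 ± 0.12), a MYC family gene, Zfp366 encoding DC-SCRIPT (1.17 ± 0.13), Id2 (0.93 ± 0.11), an inhibitor of E proteins, and Rbpj (0.67 ± 0.07), the DNA-binding partner of Notch. For Rbpj a second probe set differed by 0.23.

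Klf4, which part of the CD8- lineage requires, was at 9.35, 8.69, 7.78 and 8.40 on CD8+ arrays, against 10.68, 9.81, 9.78 and 9.85 on CD8- arrays, with replicate 1 the highest in both subsets. Its difference was -1.48 ± 0.26 (adjusted p = 0.000369). Lower in CD8+ DCs as well were Id3 (-1.48 ± 0.21), Relb (-1.47 ± 0.14), an NF-kB subunit that splenic CD8- DCs need, Runx3 (-1.11 ± 0.10), Ets1 (-1.10 ± 0.15), Tcf4 (-0.98 ± 0.15), the E protein of plasmacytoid DCs, Ikzf1 (-0.79 ± 0.10) and, by small margins, Spi1 (-0.26 ± 0.06), encoding PU.1. Spi1 lost its call with the replicate number as a block on the WT arrays alone (adjusted p = 0.06). Nfil3 (0.21 ± 0.21), Bcl6 (0.20 ± 0.08), Irf2 (-0.06 ± 0.07), Etv6 (-0.10 ± 0.08) and Stat3 (-0.09 ± 0.07) were not called. With the replicate number as a block, 7 factors were higher and 12 lower, the added ones being Batf (0.31, adjusted p = 0.0453) and Klf2 (-0.29, adjusted p = 0.023).

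C-type lectins bind carbohydrates and other ligands on microbes and dead cells, and Fc receptors bind antibody. Of 37 measured genes of these families, 7 were higher in CD8+ DCs and 23 lower, with a median of -0.79. The Clec4 genes lie side by side on chromosome 6. All 9 measured members of the cluster were called, 8 lower in CD8+ DCs and 1 higher, against 21.0% of all genes called. Clec4b1 had 3.34, 3.52, 3.16 and 3.35 on CD8+ arrays, against 7.57, 7.54, 7.11 and 7.75 on CD8- arrays (-4.15 ± 0.14). Clec4b2 had 8.42, 8.96, 8.82 and 8.65 on CD8+ arrays, against 3.07, 3.45, 4.21 and 3.38 on CD8- arrays (5.18 ± 0.31, adjusted p = 8.46e-10). The 2 genes, whose promoters are printed above, thus ran in opposite directions, each with a gap of more than 3 between its groups. In chromosome order Clec4b2 follows Clec4a1 (-4.93), Clec4a3 (-3.75), Clec4a4 (-6.05), Clec4b1 and Clec4a2 (-3.25), and is followed by Clec4n (-1.84), Clec4d (-0.53) and Clec4e (-1.67). Clec4a2 and Clec4a4 encode inhibitory receptors, and Clec4n, Clec4d and Clec4e the fungal and mycobacterial sensors dectin-2, MCL and Mincle. Genes of this family have similar sequences, and a probe set can pick up a relative's transcript, which was not tested.

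Cd209a, encoding the mouse relative of DC-SIGN, had 5.89, 5.74, 6.15 and 5.66 on CD8+ arrays, against 10.14, 10.45, 10.21 and 10.23 on CD8- arrays, and its difference was -4.40 ± 0.27. A second, dimmer Cd209a probe set differed by only -0.06, so the probe sets disagreed. In the same gene group Cd209d differed by -3.73 ± 0.23, Cd209b by -0.84, Cd209e by -0.53, and Cd209c by 0.43, while another Cd209c probe set differed by -0.49. Clec7a, encoding the beta-glucan receptor dectin-1, had 8.71, 7.77, 7.38 and 8.09 on CD8+ arrays, against 11.58, 10.25, 10.35 and 10.24 on CD8- arrays, with replicate 1 again highest in both. Fcer1g, the signalling chain shared by many activating receptors, differed by -2.57, and the Fc receptor genes Fcgr4 (-1.93), Fcgr3 (-1.01), Fcgr2b (-0.79) and Fcgr1 (-0.79) were lower in CD8+ DCs too. Clec1a (2.71), encoding a receptor for fungal melanin, was higher in CD8+ DCs, as were Ly75 and Cd207.

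Inhibitory and activating receptors of the killer lectin-like, SIRP, SIGLEC, CD300, PIR and PILR families formed the list with the largest share of lower genes after the identity and T cell lists: 26 of 29 were lower in CD8+ DCs, 1 was higher, and the median was -2.19. Klrd1, encoding CD94, had 7.40, 6.83, 7.08 and 6.57 on CD8+ arrays, against 11.76, 11.69, 11.67 and 11.55 on CD8- arrays (-4.70 ± 0.20, adjusted p = 1.27e-11). Its partner gene Klrc1, encoding NKG2A, differed by -3.95. Klri2, an activating partner of the related KLRE1 receptor, had 4.75, 4.11, 4.27 and 3.99 on CD8+ arrays, against 8.96, 9.18, 8.83 and 7.93 on CD8- arrays. Both killer lectin-like genes were thus more than 16-fold lower in CD8+ DCs. Sirpb1c (-4.99 ± 0.18) and Sirpb1a (-4.57 ± 0.17), activating relatives of Sirpa, were similar in size, and their sequences are close enough for probes to be shared. Cd300ld (-3.94), Siglece (-3.69), Cd300lf (-3.35), Cd33 (-3.04), Siglecg (-2.94), Pilra (-1.61) and Pirb (-1.25) were lower as well. Treml4, a receptor for dead cells, was the member that was higher in CD8+ DCs (1.44), and Trem2 (0.02) and Cd300c (0.38) were not called.

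**Figure D3:**
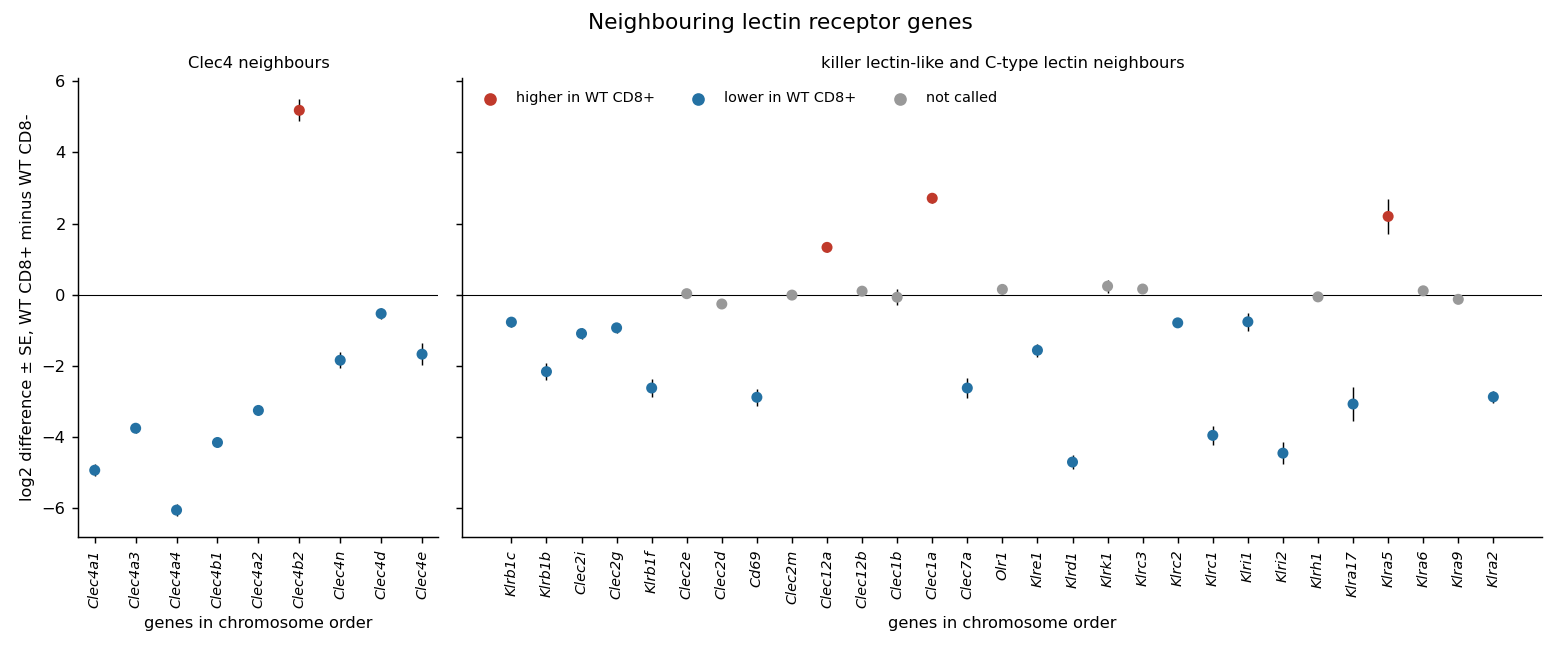
Log2 difference, WT CD8+ minus WT CD8-, with its SE for genes of the Clec4 cluster (left) and for killer lectin-like and C-type lectin genes of a second cluster (right), in chromosome order, with red for higher in CD8+, blue for lower and grey for not called. In the Clec4 cluster 8 genes are lower and Clec4b2 is higher; in the second cluster Clec12a, Clec1a and Klra5 are higher among genes such as Klrd1 and Klri2 that are lower.

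The second lectin cluster, also on chromosome 6, was less uniform. Over all its 34 measured genes, 4 were higher in CD8+ DCs, 15 lower and 15 not called. Of all genes 11.0% were higher and 10.0% lower, so the count of 4 was near that share. Klra5 was called higher (2.20 ± 0.50, adjusted p = 0.00313), at 7.60, 7.06, 7.35 and 6.63 on CD8+ arrays, against 4.98, 5.59, 5.78 and 3.49 on CD8- arrays. Its neighbour Klra17 differed by -3.07 ± 0.49. Klrk1, encoding NKG2D, was not called (0.24 ± 0.18), nor was Klrc3 (0.16 ± 0.09). Klra genes are near copies of one another, and several, such as Klra1, Klra3 and Klra7, share their probe sets and are not analysed here.

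Pattern recognition genes were split by receptor. Of 32 sensors and adaptors, 5 were higher in CD8+ DCs, 17 lower and 10 not called, with a median of -0.31. The shares over all genes were 11.0% higher and 10.0% lower. Tlr3, the sensor of double-stranded RNA, had 10.95, 11.01, 11.15 and 11.12 on CD8+ arrays, against 7.52, 7.45, 7.83 and 8.21 on CD8- arrays (3.31 ± 0.16, adjusted p = 5.7e-11). Tlr7, the sensor of single-stranded RNA, had 6.07, 4.98, 5.48 and 5.26 on CD8+ arrays, against 10.55, 10.15, 10.36 and 10.19 on CD8- arrays (-4.86 ± 0.22, adjusted p = 2.05e-11). The 2 endosomal RNA sensors were therefore 9.90-fold higher and 29.1-fold lower in CD8+ DCs. Tlr11 (2.37 ± 0.12) and Tlr12 (2.75 ± 0.18), which sense the profilin of Toxoplasma, were the other Toll-like receptors higher in CD8+ DCs. Tlr5, the flagellin receptor, differed by -2.68 ± 0.17, Tlr1 by -2.54, Tlr8 by -1.97, Tlr6 by -0.57 and Tlr9, the CpG DNA sensor, by -0.45. Tlr2 (-0.09), Tlr4 (0.15) and Tlr13 (0.08) were not called. Among cytosolic sensors, Ddx58 encoding RIG-I (-2.79 ± 0.14), Nlrc4 (-2.53), Sting1 (-1.68), Nod1 (-1.63), Ifih1 encoding MDA5 (-1.33) and Nlrp3 (-1.23) were lower in CD8+ DCs. The adaptor of TLR3, Ticam1, was higher (0.40) and Myd88, the adaptor of most other Toll-like receptors, lower (-0.25).

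Interferon-stimulated genes were mostly lower in CD8+ DCs: of 30 measured, 18 were lower and 3 higher, with a median of -0.81. Rtp4, a receptor chaperone gene with antiviral activity, had 4.76, 5.10, 5.49 and 5.20 on CD8+ arrays, against 8.96, 9.37, 9.78 and 9.61 on CD8- arrays (-4.29 ± 0.25, adjusted p = 6.39e-10). Oas2, a sensor that activates RNase L, had 4.76, 5.78, 5.18 and 5.21 on CD8+ arrays, against 7.86, 9.01, 8.99 and 9.05 on CD8- arrays, with replicate 1 the lowest in both subsets. Ifit1, which binds viral RNA and whose promoter is printed above, had 5.33, 5.04, 4.90 and 5.10 on CD8+ arrays, against 6.99, 7.51, 7.76 and 7.27 on CD8- arrays. No array of either subset crossed into the other at these 3 genes. Oasl2 (-2.50), Gbp7 (-1.91), Rsad2 (-1.86), Ifitm3 (-1.33), Usp18 (-1.17) and Isg15 (-1.03) were also lower. The 3 that were higher in CD8+ DCs were Ifi205 (2.14), which was also on the CD8+ identity list, the GTPase genes Iigp1 (1.40) and Mx1 (1.17), while Irf7 (0.18) and Irf9 (-0.05), factors that drive the response, were not called.

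Of 32 genes of MHC class I presentation and cross-presentation, 14 were higher in CD8+ DCs and 4 lower, with a median of 0.17. Those that were higher carry peptides into the endoplasmic reticulum and load them: Tap2 (1.23 ± 0.09) and Tap1 (1.00), the subunits of the peptide transporter, Tapbpl (0.67) and Tapbp (0.47), the loading chaperones, Pdia3 (0.65) and Calr (0.38). The immunoproteasome genes Psmb8 (0.59) and Psmb9 (0.58), the activator genes Psme1 (0.58) and Psme2 (0.45), and Nlrc5 (0.85), the transactivator of class I genes, were higher too. Tap2 had 7.46, 7.37, 7.38 and 7.11 on CD8+ arrays, against 6.00, 6.04, 6.28 and 6.10 on CD8- arrays. Rab43, a vesicle GTPase needed for cross-presentation, had 9.03, 8.90, 9.01 and 9.03 on CD8+ arrays, against 7.72, 7.79, 7.61 and 7.64 on CD8- arrays (1.30 ± 0.07). The class I chains themselves did not pass the test, with H2-K1 at -0.07 and B2m at -0.08.

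The 4 members of the list that were lower belong to the phagocyte oxidase and its activation. Cybb had 8.02, 7.48, 7.76 and 7.19 on CD8+ arrays, against 11.82, 11.66, 11.63 and 11.65 on CD8- arrays, a 16.9-fold difference (-4.08 ± 0.13, adjusted p = 4.9e-13). Its membrane partner Cyba differed by -0.32, the GTPase gene Rac2 by -0.72 ± 0.09 and the kinase gene Syk by -1.25 ± 0.09, whereas the cytosolic subunit genes Ncf1 (-0.21) and Ncf4 (0.20) were not called. The list of oxidase and antioxidant genes, which shares Cybb, Cyba and Rac2, had 6 of 25 higher and 6 lower. Gclc, the catalytic subunit of glutathione synthesis, had 9.15, 8.92, 9.16 and 9.01 on CD8+ arrays, against 6.87, 6.81, 6.77 and 6.74 on CD8- arrays, a 4.79-fold difference. Slc7a11, the cystine transporter that supplies the same pathway, was lower in CD8+ DCs (-2.37 ± 0.28).

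For MHC class II presentation, 4 of 21 genes were higher in CD8+ DCs and 8 lower, against 11.0% and 10.0% over all genes. The list's median was -0.10. H2-Eb2 differed most, at 7.50, 7.41, 7.56 and 7.63 on CD8+ arrays, against 10.15, 10.40, 10.53 and 10.39 on CD8- arrays (-2.84 ± 0.18). Most of the lysosomal proteases that prepare peptides, and the reductase gene Ifi30, were lower in CD8+ DCs: Lgmn (-1.31 ± 0.11), Ctsd (-1.17 ± 0.14), Ctsl (-0.86 ± 0.20), Ifi30 (-0.81), Ctss (-0.49) and Ctsz (-0.49), while Ctsb (-0.08) was not called. The classical chains H2-Aa (-0.07), H2-Ab1 (0.02) and H2-Eb1 (0.00 to 2 decimals) were not called. Marchf1, which marks class II for degradation, was higher in CD8+ DCs (0.41), as were H2-DMa (0.20) and H2-DMb1 (0.27), while H2-DMb2 was lower (-0.78). H2-DMa lost its call with the replicate number as a block (adjusted p = 0.0749). The 4 higher genes were 2 without CD8+ replicate 3 or 4, without CD8- replicate 2 or 3, or after cyclic loess normalization.

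Chemokine and lipid-mediator receptors, which guide where DCs sit in the spleen, were higher for 6 of 36 genes in CD8+ DCs and lower for 13. Their median was -0.27, and the shares over all genes were 11.0% higher and 10.0% lower. P2ry14, a receptor for UDP-sugars, had 10.72, 10.67, 10.66 and 10.70 on CD8+ arrays, against 6.61, 6.27, 6.52 and 6.82 on CD8- arrays, a 17.5-fold difference. With Xcr1 it stood above Ptger2 (2.07), a prostaglandin E2 receptor gene, Cxcr3 (1.60) and Cysltr1 (1.19). Ptger3, another prostaglandin E2 receptor gene, ran the opposite way to Ptger2, at 3.95 to 4.49 on CD8+ arrays against 6.80 to 7.75 on CD8- arrays (-2.98 ± 0.19). Ccr6 (-2.90 ± 0.20), Cx3cr1 and Gpr183 (-2.64), the oxysterol receptor gene that places CD8- DCs at the bridging channels of the spleen, were lower in CD8+ DCs. Ccr7, which guides DCs to T cell zones, missed the threshold (-0.87 ± 0.30, adjusted p = 0.0508), although its groups did not overlap. With the replicate number as a block it was called (adjusted p = 0.000167), and 17 of the 36 receptor genes were lower.

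Among 25 chemokines, 7 were higher in CD8+ DCs and 6 lower, against 11.0% and 10.0% over all genes, with a median of 0.03. Ccl22, which attracts regulatory T cells through CCR4, had 10.61, 10.72, 10.71 and 10.84 on CD8+ arrays, against 8.27, 7.58, 7.62 and 8.55 on CD8- arrays (2.71 ± 0.22, adjusted p = 3.41e-08). Cxcl9, a ligand of CXCR3, had 12.09, 11.89, 11.79 and 11.77 on CD8+ arrays, against 9.62, 10.13, 9.78 and 10.09 on CD8- arrays, and the other ligands of that receptor, Cxcl11 (1.57) and Cxcl10 (0.73), were higher as well. Xcl1, the ligand of XCR1 and known from NK and T cells, had 8.06, 6.62, 6.63 and 7.69 on CD8+ arrays, against 10.53, 10.66, 10.54 and 11.17 on CD8- arrays. The receptor gene was thus higher and the ligand gene lower in CD8+ DCs. Ccl9 (-2.67 ± 0.25), Ccl3 (-1.54), Ccl6 (-0.87) and Ccl5 (-0.83) were lower too, while Ccl17 (0.15), the other CCR4 ligand, was not called.

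Cytokine genes were higher for 5 of 30 in CD8+ DCs and lower for 9, against 11.0% and 10.0% over all genes. Il12b, the p40 chain of interleukin 12, which these cells are known to make, had 10.40, 9.40, 9.50 and 9.72 on CD8+ arrays, against 7.10, 7.70, 7.31 and 6.98 on CD8- arrays (2.48 ± 0.23, adjusted p = 1.7e-07). The other chain of interleukin 12, Il12a (-0.04), and the alternative partner of p40, Il23a (0.00 to 2 decimals), were not called. Il15, a survival cytokine for NK and memory CD8 T cells, was higher in CD8+ DCs (1.76). Bmp2, a morphogen of the TGF-beta family, had 3.85, 3.49, 3.68 and 3.40 on CD8+ arrays, against 7.39, 7.71, 7.65 and 7.43 on CD8- arrays, a 15.4-fold difference. Ltb, encoding lymphotoxin beta, differed by -2.64 ± 0.16, the interleukin 1 antagonist gene Il1rn by -2.19 ± 0.14, Osm by -1.68 and Vegfa by -1.66.

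Receptors for cytokines and growth factors were called lower in CD8+ DCs for 17 of 34 genes and higher for 5, with a median of -0.34. Over all genes, 10.0% were lower and 11.0% higher. Il1r2, a decoy receptor for interleukin 1, had 9.36, 7.83, 6.38 and 7.77 on CD8+ arrays, against 12.61, 11.35, 10.64 and 10.57 on CD8- arrays, and replicate 1 was again the highest of each subset. Its SDs were 1.22 in CD8+ and 0.95 in CD8- DCs (n = 4 each), and the groups did not overlap (-3.46 ± 0.52, adjusted p = 6.8e-05). Il7r (-2.93 ± 0.26), Csf1r (-2.43 ± 0.15), the receptor of macrophage growth factor, Il21r (-2.33 ± 0.17) and Csf3r (-1.68 ± 0.09) were lower in CD8+ DCs. Il15ra (0.83), which presents interleukin 15 at the cell surface, was higher alongside its ligand, as were Ifngr1 (0.46) and Csf2ra (0.35).

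Of 35 genes of co-stimulation and maturation, 9 were higher in CD8+ DCs and 13 lower, against 11.0% and 10.0% over all genes. Cd86, a ligand of CD28, was higher in CD8+ DCs, at 11.41, 11.39, 11.43 and 11.39, against 10.18, 10.12, 9.85 and 9.81 on CD8- arrays (1.41 ± 0.09). The ligand genes of the inhibitory receptor PD-1 ran the other way. Cd274, encoding PD-L1, had 8.42, 7.53, 7.24 and 7.32 on CD8+ arrays, against 10.22, 10.16, 10.14 and 9.88 on CD8- arrays (-2.48 ± 0.22), and Pdcd1lg2, encoding PD-L2, had 4.58, 4.77, 4.77 and 4.52 on CD8+ arrays, against 5.77, 6.87, 7.40 and 6.83 on CD8- arrays. Btla (2.56 ± 0.09), its ligand Tnfrsf14 (0.42) and Cd200 (1.87 ± 0.13), all of which dampen T or myeloid cells, were higher in CD8+ DCs, and Cd200r1, the receptor of CD200, lower (-1.31). Cd40 (-0.13), Cd80 (-0.31) and Cd83 (-0.10) were not called. Cd80 was called lower with the replicate number as a block (adjusted p = 0.0162).

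Integrins and adhesion molecules were split nearly evenly: 10 of 34 were higher in CD8+ DCs and 14 lower, with a median of -0.02. Itga8, an integrin alpha chain, had 7.62, 7.74, 7.59 and 7.67 on CD8+ arrays, against 4.74, 4.15, 4.18 and 4.28 on CD8- arrays, and Itga1 (1.88) was higher with it. Cadm1 and Cadm3, adhesion genes of the nectin-like family, ran in opposite directions at 2.99 ± 0.12 and -3.55 ± 0.14. Scavenger and efferocytosis receptors were higher for 4 of 26 genes and lower for 11, against 11.0% and 10.0% over all genes. Besides Cd36, those higher in CD8+ DCs were Scarb1 (0.93), Anxa1 (0.79) and Abcg1 (0.52), and those lower included Msr1 (-1.87), Lrp1 (-1.66) and Axl (-0.65).

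The Notch pathway, which supports the ESAM+ part of CD8- DCs, was read from a list with 7 of 28 genes higher in CD8+ DCs and 7 lower. Its median was -0.11, and over all genes 11.0% were higher and 10.0% lower. The list also holds Il2ra and the subset markers Esam and Cd4, both called lower. Esam, Cd4 and Dtx1 are on the CD8- identity list as well. Notch2 itself had 8.75, 8.59, 8.61 and 8.70 on CD8+ arrays, against 8.82, 8.65, 8.75 and 8.73 on CD8- arrays, and was not called (-0.07 ± 0.08, adjusted p = 0.657). Dtx1, a target and regulator of Notch, had 5.37, 5.46, 5.59 and 6.16 on CD8+ arrays, against 8.95, 9.01, 9.44 and 9.35 on CD8- arrays (-3.54 ± 0.16), with -2.67 at a second probe set. The receptor gene was thus level between the subsets while this target was 11.7-fold lower in CD8+ DCs. Jag1 (-2.11 ± 0.19), a ligand, was lower, and Notch4 (1.81 ± 0.18), Jag2 (1.09) and Numb (0.75), an inhibitor, were higher in CD8+ DCs. Hes1 (-0.28) and Hey1 (-0.16), other targets, were not called, but Hes1 was with the replicate number as a block (adjusted p = 0.0381).

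Enzymes of lipid mediators were read from a list that also held retinoid, tryptophan and arginine enzymes. Of its 26 genes, 11 were lower in CD8+ DCs and 3 higher. The lower ones include Kmo (-0.48) of the tryptophan group and Arg1 (-0.28) of the arginine group. Arg1 lost its call with the replicate number as a block (adjusted p = 0.0739). Ptgs2, encoding the inducible cyclooxygenase COX-2, had 8.71, 8.35, 7.52 and 7.74 on CD8+ arrays, against 12.95, 12.52, 12.35 and 12.32 on CD8- arrays, a 21.9-fold difference (-4.45 ± 0.28). Lower as well were Pla2g4a (-1.49), which releases arachidonic acid, Hpgds (-1.87 ± 0.19), which makes prostaglandin D2, and, on the leukotriene branch, Alox5 (-1.30 ± 0.19) and Lta4h (-1.47). Other synthase genes of the same branches were not called, with Ptges at 0.10, Ptgds at 0.03, Alox5ap at 0.10 and Ltc4s at 0.36. Tbxas1, the thromboxane synthase gene, was higher in CD8+ DCs (1.55), as was Ido1 (0.69), which degrades tryptophan.

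Metabolic genes differed by smaller amounts. Of 62 genes of oxidative phosphorylation, 23 (37.1%) were higher in CD8+ DCs and none lower, against 11.0% and 10.0% over all genes, and the median was 0.17. The shares over all genes include dim genes, which are called less often. They are a low background for this list, whose array means lay at 8.38 or above. The count of higher genes lay between 16 (without CD8- replicate 4) and 33 (quantile normalization) over the settings tried, and the count of lower genes was 0 or 1. With the replicate number as a block it was 23 higher and 1 lower, Ndufs5 (-0.33, adjusted p = 0.0432). Those that were higher came from several parts of the chain: Ndufa12 (0.58 ± 0.07), Ndufs4 (0.50 ± 0.07) and Ndufs8 (0.49 ± 0.12) of complex I, Uqcr11 (0.48) of complex III, the carrier cytochrome c, Cycs (0.55 ± 0.06), and Atp5g3 (0.39) of the ATP synthase. Ndufs4 had 9.65, 9.70, 9.61 and 9.63 on CD8+ arrays, against 9.18, 9.13, 9.21 and 9.09 on CD8- arrays, so that even this 1.41-fold difference exceeded the spread between arrays. Of 28 genes of the TCA cycle and pyruvate entry, 7 were higher and 2 lower (32.1% called, against 21.0% over all genes). That share is a low background here too, with array means at 7.59 or above. The 2 lower genes were 1 without CD8- replicate 1 and 4 after cyclic loess. Idh1, the cytosolic isocitrate dehydrogenase, differed by 1.06 ± 0.12, and Mdh2, the mitochondrial malate dehydrogenase, by -1.0 ± 0.08. Of 20 genes of mitochondrial fusion, fission and biogenesis, 3 were higher and 2 lower, so 25.0% were called, against 21.0% over all genes. Their array means lay at 6.10 or above, so 21.0% is a low background here as well. The replicate block gave 2 higher and 1 lower, the 8 WT arrays alone 1 and 1, cyclic loess 1 and 2, and leaving out CD8+ replicate 2 or 3 or CD8- replicate 4 gave 1 higher.

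Glycolysis showed larger differences between isozymes than the pathway as a whole did, with 11 of 25 genes higher in CD8+ DCs, 6 lower and a median of 0.28. Hk3, a hexokinase of myeloid cells, had 7.00, 6.73, 7.19 and 7.00 on CD8+ arrays, against 4.59, 4.91, 4.86 and 4.82 on CD8- arrays (2.18 ± 0.11). Hk1 was lower (-0.42) and Hk2 was not called (-0.22). The glucose transporter gene Slc2a3 had 5.06, 5.16, 4.96 and 4.51 on CD8+ arrays, against 8.24, 8.32, 8.19 and 8.01 on CD8- arrays, a 9.64-fold difference (-3.27 ± 0.12). Slc2a6 (-1.75) and Slc2a1 (-0.57) of the same transporter family were lower and Slc2a9 (-0.01) was not called. Of the lactate transporter genes, Slc16a3 (-0.77) was lower and Slc16a1 (0.60) higher. Pfkp (1.66 ± 0.15), Aldoc (1.31), Pgk1 (1.18), Pgam1 (0.81), Tpi1 (0.61) and Ldha (0.38) along the pathway were higher in CD8+ DCs. A second probe set of Slc2a1 differed by 0.16. Among 23 genes of cholesterol and fatty acid synthesis, 6 were higher and 5 lower: Fads1 (1.64 ± 0.21), Scd1 (1.24 ± 0.20), Fasn (0.91 ± 0.10) and Elovl6 (0.90 ± 0.17), which build and desaturate fatty acids, were higher in CD8+ DCs, and Hmgcs1 (-0.82), Msmo1 (-0.51), Mvd (-0.37) and Cyp51 (-0.34) of the sterol branch were lower. The 5 lower genes were 3 without CD8+ replicate 1 or 3 or CD8- replicate 4.

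Cell cycle and DNA replication genes were called lower in CD8+ DCs for 8 of 36 and higher for 1, with a median of -0.12. The share called was 25.0%, against 21.0% over all genes, a low background for this list, whose array means lay at 7.18 or above. Most of the size lay in a pair of D cyclins. Ccnd2 had 6.27, 6.29, 6.91 and 6.65 on CD8+ arrays, against 8.91, 9.50, 9.58 and 9.58 on CD8- arrays (-2.86 ± 0.18), and Ccnd1 had 8.66, 9.03, 9.05 and 9.22 on CD8+ arrays, against 10.01, 10.27, 10.39 and 10.34 on CD8- arrays (-1.26 ± 0.11). Mki67 (-0.33), Top2a (-0.34) and Pcna (-0.03), which mark dividing cells, were not called. Mki67 (adjusted p = 0.0283) and Top2a (adjusted p = 0.00668) were called lower with the replicate number as a block, and the list then had 2 higher and 10 lower. The count of lower genes in this list was unsteady, falling to 3 without CD8+ replicate 4, to 4 without CD8- replicate 3 or 4, and to 5 without CD8+ replicate 1 or 3.

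In the BCL2 family, 7 of 15 genes were higher in CD8+ DCs and 3 lower, with a median of 0.21. Bcl2l14, a little-studied member, had 6.52, 6.05, 6.31 and 6.32 on CD8+ arrays, against 3.64, 3.60, 3.94 and 4.01 on CD8- arrays (2.50 ± 0.12). Of the death-promoting members, Bid (1.10 ± 0.11), Bcl2l11 encoding BIM (0.81 ± 0.10), Bad (0.45) and Bak1 (0.40) were higher in CD8+ DCs and Pmaip1 lower (-0.73 ± 0.23, adjusted p = 0.0313). Of the protective members, Bcl2l1 (0.48) and Bcl2l2 (0.49) were higher, and Bcl2 (-0.48) and Mcl1 (-0.26) lower, with -0.31 and no call at a second Bcl2 probe set. The 3 lower genes were 1 without CD8+ replicate 4 or CD8- replicate 1. In the Hippo pathway 4 of 22 genes were higher and 1 was lower, so 22.7% were called, against 21.0% over all genes. Dim genes, called less often, are part of that 21.0%, and the list's array means lay at 5.90 or above. The 4 higher genes were 2 without CD8+ replicate 4 or without CD8- replicate 2 or 3. Cyclic loess gave 2 higher and 3 lower, and the replicate block 4 higher and 2 lower, with Stk38l (-0.79, adjusted p = 8.02e-05) added. Stk4, encoding MST1, was level between the subsets (0.01), and the scaffold gene Sav1 (0.51 ± 0.08) and kinase gene Lats1 (0.32 ± 0.08) were a little higher in CD8+ DCs.

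**Figure D4:**
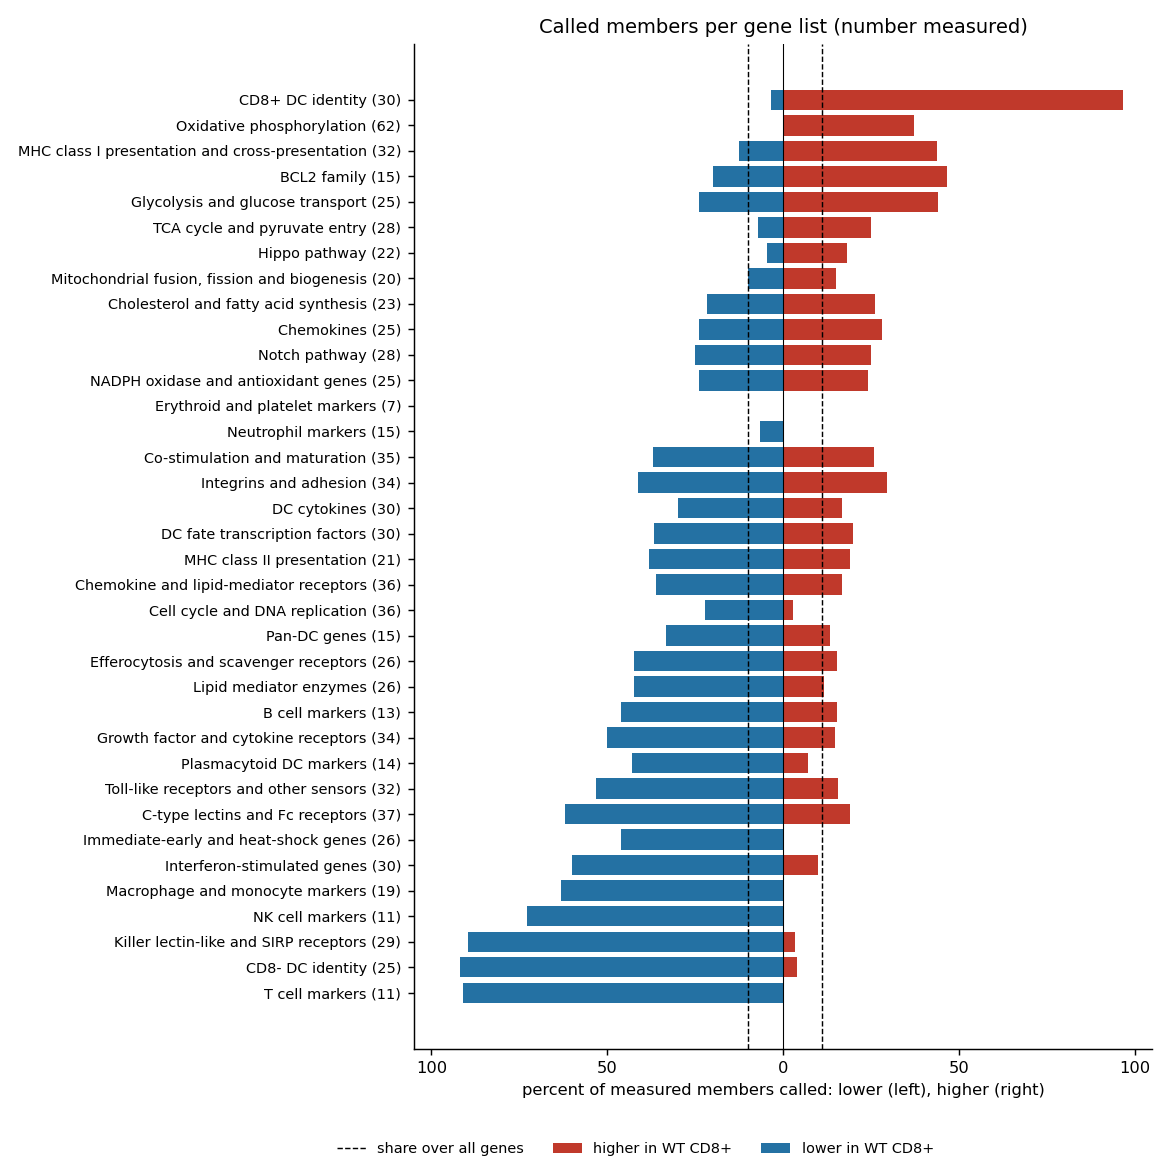
Percent of the measured members of each of 36 gene lists called higher (red, to the right) and lower (blue, to the left) in WT CD8+ than in WT CD8- DCs, with the number measured in brackets and dashed lines at the shares over all genes, 11.0% higher and 10.0% lower. Oxidative phosphorylation has 37.1% of its genes higher and none lower. The shares over all genes include dim genes, which are called less often than bright ones.

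Other genes with the largest differences have not been named so far. Plpp1, Hepacam2, Gpr33 and Rab7b among them are on the CD8+ identity list and were counted there. Higher in CD8+ DCs were Ctla2b, a cathepsin inhibitor-like gene (4.74 ± 0.18), P3h2, a collagen prolyl hydroxylase (4.68 ± 0.18), Pdia5, an endoplasmic reticulum disulfide isomerase (4.39 ± 0.19), Plpp1, a lipid phosphatase (4.34 ± 0.16), Hepacam2 (4.37 ± 0.21), Gpr33 (4.25 ± 0.15), Ppef2, a phosphatase (4.19 ± 0.27), and Rab7b, a GTPase of late endosomes (3.98 ± 0.17). Lower were Bex6 (-4.85 ± 0.24), Sh2d1b1, encoding the adaptor EAT-2 (-4.74 ± 0.16), Mmp12, the macrophage elastase (-4.58 ± 0.22), Dscam, an adhesion molecule known from neurons (-4.46 ± 0.13), and Stat4, a transducer of interleukin 12 signals (-4.38 ± 0.25). Dscam had 5.07, 5.06, 5.21 and 4.78 on CD8+ arrays, against 9.21, 9.67, 9.75 and 9.33 on CD8- arrays. Its groups did not overlap.

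The sorted populations can hold other cells, so marker lists of other cell types were read beside these results. In such bulk RNA, fewer cells of a type and less RNA per cell cannot be told apart. T cell markers were lower in CD8+ DCs for 10 of 11 genes, with list means of 4.47 to 4.64 on CD8+ arrays against 5.24 to 5.94 on CD8- arrays. Cd3e had 3.90, 3.62, 3.94 and 4.11 on CD8+ arrays, against 4.90, 5.54, 5.40 and 6.35 on CD8- arrays. NK cell markers were lower for 8 of 11, with list means of 4.96 to 5.00 on CD8+ arrays against 5.56 to 6.32 on CD8- arrays, and Gzma, a cytotoxic granule protease, stood at 8.68 in CD8- replicate 4 against 4.48 to 5.12 in the other CD8- arrays and 3.76 to 3.99 on CD8+ arrays. Prf1, the pore-forming protein of killer cells, was not called (0.03), and Ncr1, a receptor that defines NK cells, differed by -0.59. Macrophage and monocyte markers were lower for 12 of 19, at list means of 6.16 to 6.46 on CD8+ arrays against 6.84 to 7.23 on CD8- arrays, led by the macrophage receptor gene Adgre1 (-3.64 ± 0.15) and Ly6c2 (-1.59 ± 0.37). Ly6c2 had 7.68, 8.20, 7.40 and 8.27 on CD8+ arrays, against 10.25, 8.82, 8.60 and 10.24 on CD8- arrays, high in CD8- replicates 1 and 4.

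Plasmacytoid DC markers were lower in CD8+ DCs for 6 of 14 and higher for 1, at list means of 6.19 to 6.44 on CD8+ arrays against 7.02 to 7.40 on CD8- arrays. Cd209d, Spib (-3.03 ± 0.22), Lair1 (-2.96 ± 0.12) and Lag3 (-1.42 ± 0.19) carried most of it, and Siglech, a defining receptor, differed by -0.65. B cell markers were lower for 6 of 13 and higher for 2, at list means of 5.32 to 5.51 on CD8+ arrays against 5.89 to 6.13 on CD8- arrays. Cd22 (-2.89 ± 0.10) and Cd79b (-2.14 ± 0.23) were lower, Fcrla (2.13 ± 0.35) and Ms4a1 encoding CD20 (0.84) higher, and Cd79a (-0.17) and Pax5 (0.03) were not called. Ighm was not called at -0.10; of its 6 other probe sets 1 was called, at -2.44, and the rest lay between -1.33 and 0.13. Neutrophil markers had 1 of 15 lower, Mmp9 (-1.66 ± 0.28), at list means of 4.66 to 5.13 on CD8+ arrays against 5.08 to 5.39 on CD8- arrays, and the 7 erythroid and platelet markers had no call, at 4.61 to 4.68 on CD8+ arrays against 4.54 to 4.82 on CD8- arrays. With the replicate number as a block, 4 neutrophil markers were lower, S100a8 (-1.33), S100a9 (-1.39) and Lcn2 (-0.39) being added, and the platelet gene Gp9 (0.53) was higher. Without CD8- replicate 1, 2 erythroid and platelet markers were higher. Most T and NK markers were lower in CD8+ DCs, as were Klrd1, Klrc1, Xcl1, Stat4 and Il7r, which is itself on the T cell list. Several plasmacytoid and monocyte markers were lower too, as were Tlr7, Csf1r and most interferon-stimulated genes. Whether other cells had a part in those results was not tested.

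Immediate-early and heat-shock genes, which cells can switch on while they are handled, were lower in CD8+ DCs for 12 of 26 genes and higher for none, with a median of -0.42. The list means were 9.30 to 9.81 on CD8+ arrays against 9.86 to 10.16 on CD8- arrays. Egr1 had 9.74, 8.98, 8.60 and 8.81 on CD8+ arrays, against 10.43, 10.24, 10.11 and 10.22 on CD8- arrays, and Nr4a1 had 11.62, 11.07, 10.67 and 11.05 on CD8+ arrays, against 12.16, 11.92, 11.88 and 11.80 on CD8- arrays, both highest in replicate 1. The count depended on the pairing: with the replicate number as a block, 21 of the 26 were lower in CD8+ DCs. Their part in the differences of other genes was not tested.

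The same subsets from Mst1/2-KO mice, on other arrays, were set beside the WT ones. Stk4, the gene for MST1, had 7.64, 7.22, 7.63 and 7.39 on Mst1/2-KO CD8+ arrays, against 8.26, 8.33, 8.46 and 8.28 on WT CD8+ arrays, and 7.49, 7.67, 7.65 and 7.39 on Mst1/2-KO CD8- arrays, against 8.15, 8.40, 8.44 and 8.28 on WT CD8- arrays. Every Mst1/2-KO array lay below every WT array. Stk3, the gene for MST2, is not analysed here. Mst1/2-KO CD8+ and CD8- DCs differed at 4265 genes (19.2%). Genes called in both genotypes with the same sign numbered 3117, which is 73.1% of the Mst1/2-KO calls and 66.8% of the WT calls, and 5 were called in both with opposite signs. Of the 4663 WT calls, 95.9% had the same sign in Mst1/2-KO DCs, against 69.3% of all genes. Of the 1075 at least 2-fold WT differences, 1068 kept their sign and 7 did not.

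The subset difference was then tested against that of the other genotype. It differed at 124 genes (0.559%), 95 of them among the WT calls, and was smaller in Mst1/2-KO DCs at 67 and larger, with the same sign, at 25. Bmp2 changed most among those named for a smaller difference, -1.33 in Mst1/2-KO against -3.94 in WT DCs (a change of 2.62 ± 0.20, adjusted p = 2.38e-06). Ccl22 stood at 0.53 in Mst1/2-KO against 2.71 in WT DCs, Gclc at 0.44 against 2.26, P2ry14 at 2.93 against 4.13, Tlr7 at -3.33 against -4.86 and Esam at -0.26 against -1.36. Bcl2l11 (-0.33 in Mst1/2-KO against 0.81 in WT) and Idh1 (-0.08 against 1.06) were no longer higher in CD8+ DCs of the Mst1/2-KO genotype. In the other direction, Tmem176a stood at -3.73 in Mst1/2-KO against -2.61 in WT DCs, Tcf4 at -2.14 against -0.98, Alox5 at -3.84 against -1.30, Dab2 at -3.54 against -1.16 and Cox6a2 at -3.36 against -0.17. Cox6a2 is a cytochrome c oxidase subunit known from muscle and plasmacytoid DCs. Irf8 (1.96 against 2.77), Batf3 (0.74 against 0.48) and Irf4 (-3.95 against -3.76) were not called for a difference between genotypes. The count of 124 was among the least steady values, at 211 with the replicate number as a block, 259 without WT CD8- replicate 1, 79 without WT CD8- replicate 2 and 253 without replicate 1 of both WT subsets.

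**Figure D5:**
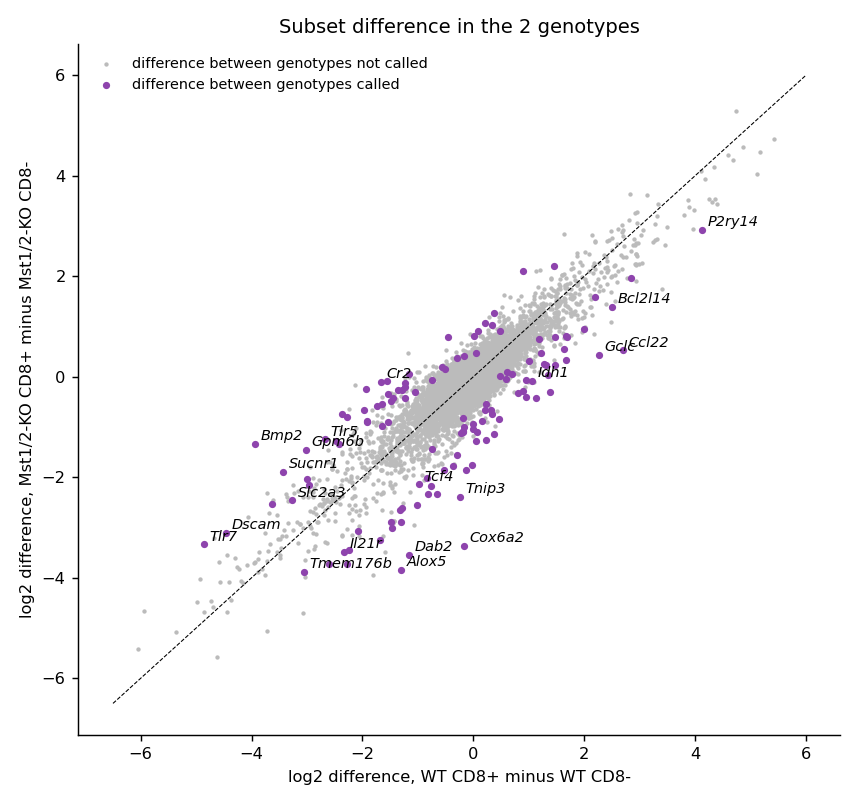
Log2 difference between the subsets, CD8+ minus CD8-, in Mst1/2-KO DCs (vertical axis) against the same difference in WT DCs (horizontal axis) for all genes, with the 124 genes whose difference depended on genotype in purple and a dashed line where both are equal. Bmp2 lies above the line at -1.33 against -3.94, and Cox6a2 below it at -3.36 against -0.17.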

How the data were processed

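The deposited table holds log2 signals of 41155 probe sets on 34 arrays, normalized by the authors. RMA and Partek 6.6 are named in the submitters' processing notes. The genome build is not given in the sources used here. Per the labels' protocols, RNA from sorted cells was amplified and biotin-labelled from nanogram amounts. Values were compared only among the 16 sorted-subset arrays, which carry 1 experiment label. The 23521 probe sets with 1 symbol gave 22180 genes, each represented by the probe set with the highest mean over all arrays; 1814 probe sets have several symbols and 15820 none, and 21994 symbols were the same in the RefSeq table.

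A model with 1 mean per group was fitted to the 16 arrays by limma (3.58.1, with R 4.3.3), after a check on simulated data, and p-values were adjusted with the Benjamini-Hochberg method over all genes. Whether replicate arrays represent different animals is not stated in the labels, and p-values then measure the spread between arrays, which may be technical. Deviations of same-numbered WT arrays correlated at 0.34, 0.13, 0.22 and 0.14, and those of differently numbered ones at -0.2 to 0.044. The numbers may thus pair the arrays, which the labels do not state. SEs, adjusted p-values and counts are from the limma fit without this pairing unless a block is named. Blocked values are given where they change the call of a gene named in the report or move a count by over 1.5 times.

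Genes named are Cd8a, Cd8b1, Cd4, members of the identity and transcription factor lists, the 15 largest non-overlapping differences each way, up to 4 called members of each other list (2 of smallest p where fewer than 2 were called), the 5 largest changes between genotypes each way and any named gene called there, leaving out predicted genes, clone names and gene segments. Other list members and neighbours were named after their values were seen. Comparisons, members and the 36 lists were chosen with earlier results of these data known. Genes whose probe sets are shared, such as Clec9a, Cd74 and Zeb2, are not analysed here. Alternatives were other normalizations, filters, probe set rules, variance models, array weights, blocks and left-out arrays.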

Additional observations from a re-analysis of the deposited data

Results flagged for a closer look

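In 20 of 420 groups of 4 arrays examined, 1 array lay so far from the rest that its gap exceeded Dixon's critical share of the group's range; chance gives about 5% of groups. Of WT CD8+ arrays, replicate 1 stood out for Runx3 (high, gap 0.95 of the range), Ppef2 (low, 0.923), Kmo (high, 0.876) and Bcl2l11 (low, 0.87), replicate 2 for Rab43 (low, 0.832) and Bex6 (high, 0.943), and replicate 4 for Alox5 (low, 0.832). Of WT CD8- arrays, replicate 1 stood out as high for Clec7a (0.916), Klf4 (0.929), Cybb (0.846) and Slc7a11 (0.831), and as low for Septin3 (0.831), Il7r (0.887), Oas2 (0.955), Ccnd2 (0.881) and Gpm6b (0.91). CD8- replicate 2 stood out for Fads1 (low, 0.898), and CD8- replicate 4 for Gzma (high, 0.85), Notch4 (low, 0.855) and Runx3 (low, 0.864).

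For 27 genes named in the report, the subset difference itself changed with genotype in limma's test. The values are the Mst1/2-KO difference minus the WT difference on the log2 scale. Those above 0 were Bmp2 (2.62), Mid2 (1.68), Gpm6b (1.57), Cr2 (1.57), Sucnr1 (1.55), Tlr7 (1.53), Tlr5 (1.44), Dscam (1.35), Esam (1.09), Adgre1 (1.09) and Slc2a3 (0.81). Those below 0 were Cox6a2 (-3.19), Alox5 (-2.54), Dab2 (-2.39), Ccl22 (-2.18), Tnip3 (-2.15), Gclc (-1.82), P2ry14 (-1.20), Elovl6 (-1.19), Tcf4 (-1.16), Il21r (-1.15), Idh1 (-1.13), Bcl2l11 (-1.13), Tmem176a (-1.12), Bcl2l14 (-1.11), Tmem176b (-0.83) and Cd24a (-0.68).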

How the results depend on the processing

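The WT count of 4663 ranged from 4033 to 4545 when each WT array was left out in turn, was 5040 with a replicate block and 3308 at an adjusted p under 0.01, and was 1075 where at least a 2-fold difference was also required. Called list genes (463) ranged from 416 to 455 with arrays left out. The count of genes whose subset difference changed with genotype (124) ranged from 79 to 259 with arrays left out, and was 211 with a replicate block, 222 with array weights and 253 without replicate 1 of both WT subsets, a setting chosen after seeing the data; the cause was not tested. It has no value in fits of the WT arrays alone. Of 191 called genes named by the rule, 178 kept their call in every setting that measured them, and none of the 210 named genes changed sign while called. The 13 that lost it somewhere were Adam23, Bach2, Cd8b1, Clec10a, Egr2, Gzma, Kmo, Mcm2, Pmaip1, Spi1, Tfam, Tfb2m and Vgll4. Over the gene lists a replicate block added 45 calls and took away 11. Among genes named by the rule it took the call from Tfam and Tfb2m, and, on the WT arrays alone, also from Gzma and Spi1. Calls higher in CD8+ DCs were 52.4% of the total and 47.0% after cyclic loess. Without depth or detection values, differences among dim genes cannot be bounded.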

Other observations

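Some values varied between replicates in the same way in both subsets. Pla2g7, which inactivates platelet-activating factor, was lowest in replicate 3 of each, at 6.78, 7.26, 5.05 and 6.85 on CD8+ arrays, against 8.54, 8.91, 7.53 and 8.70 on CD8- arrays. Nr4a3, an immediate-early nuclear receptor gene, had 11.62, 10.67, 10.50 and 10.75 on CD8+ arrays, against 11.97, 11.08, 10.60 and 10.68 on CD8- arrays, so the spread between replicates exceeded the difference between the subsets (-0.20 ± 0.30).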
